A study of Mus musculus with 12 samples.

Results

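Kctd12 and Abhd15 are 2 of the 24421 gene symbols in the count table, and both were among the 11468 genes that were tested. The pair was selected on its measured change, a large excess of counts with the bromodomain inhibitor I-BET151 (iBET) over the solvent DMSO under both stimulations. The iBET against DMSO differences of the pair are therefore a description and carry no test. Tests are given for the response to immune complexes within each drug arm, for the difference between those responses, and for other genes.

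The RNA came from bone marrow-derived macrophages (BMDMs) of wild-type C57BL/6 mice, cultured for 5 days with 100 ng/mL M-CSF and refed on day 3. For 4 h, cells had either iBET at 5.0 µM or DMSO (5% in the labels), and either ovalbumin alone (Ova) or ovalbumin opsonized with rabbit anti-ovalbumin IgG as insoluble immune complexes (IC). The 4 groups (DMSO Ova, DMSO IC, iBET Ova, iBET IC) hold 3 libraries each, 1 from each of mice A, B and C. The labels have drug and stimulus added at once, while the methods of the study put the drug before the stimulus, so their order is uncertain.

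BET proteins bind acetylated lysines of histones through their bromodomains and help RNA polymerase II into productive elongation, and iBET competes for that binding. IgG in immune complexes cross-links Fcγ receptors on macrophages. Kctd12 encodes a protein of the KCTD family, which share a tetramerization (BTB-like) domain. It is best known in neurons as an auxiliary subunit of the GABA-B receptor, where it binds the receptor and the βγ subunits of its G protein and speeds desensitization. Abhd15 encodes a member of the α/β-hydrolase fold family and is best known in adipocytes, where it binds the phosphodiesterase PDE3B and takes part in the restraint of lipolysis by insulin.

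A library held between 7.55 M and 17.4 M counts. One library stood apart, that of mouse A in DMSO Ova, where 77.4% of counts were on the ribosomal precursor Rn45s (1.41% to 7.83% in the other 11) and 1.77 M were left for all other genes. The fitted changes of the pair that use that library are also given without it. So are the counts called with iBET in Ova, for all genes and for listed genes together, and between IC and Ova in DMSO. All 10 macrophage markers were detected, and their summed level was 6525 to 7836 CPM (counts scaled to a common library size with TMM factors) in the DMSO libraries and 7313 to 8678 CPM in the iBET libraries. The sum hides unlike members. Mertk was called higher with iBET in Ova (log2 fold change 0.77, edgeR adjusted p 0.0354) and in IC (1.25, 0.0024), and Lyz2 in IC only (0.41, 0.0222). No other macrophage marker was called. Among those not called, Fcgr1 had -0.47 in Ova and -0.72 in IC, and Aif1 had -0.24 and -0.94. The markers of the 2 tissues in which the pair is best known were close to absent. Adipocyte markers summed to at most 0.194 CPM in any library, with Lep, Plin1 and Cfd at 0 in all 12, and neuronal markers to at most 1.08 CPM. T cell markers summed to at most 0.291 CPM, B cell markers to 1.33 CPM, fibroblast markers to 2.57 CPM and neutrophil markers to 33.5 CPM. Dendritic cell markers summed to between 0.230 and 1.09 CPM in DMSO and between 0.451 and 1.45 CPM in iBET, and their part in the results was not tested. The single tested marker of that list, Zbtb46, had 78 counts in all and was called with iBET in Ova (log2 fold change 3.38, edgeR adjusted p 0.0082) and not in IC (1.32, edgeR adjusted p 0.0864). In RNA from whole cultures, a change in the number of cells that make a transcript and a change in RNA per cell cannot be told apart.

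On GRCm38/mm10, Kctd12 (ENSMUSG00000098557.1) lies on the minus strand of chromosome 14, from 102976581 to 102982637, and its longest transcript of 6057 bases fills the gene as 1 exon. Abhd15 (ENSMUSG00000000686.11) lies on the plus strand of chromosome 11, from 77515121 to 77538607, with 3035 exonic bases over its 3 annotated transcripts. The 250 bases before each RefSeq start (GRCm38.p6) are shown because both genes moved together with iBET. The Kctd12 window is chr14:102982638-102982887 on the minus strand and the Abhd15 window is chr11:77514867-77515116 on the plus strand. Capitals mark matches to the motifs listed after them.
Kctd12: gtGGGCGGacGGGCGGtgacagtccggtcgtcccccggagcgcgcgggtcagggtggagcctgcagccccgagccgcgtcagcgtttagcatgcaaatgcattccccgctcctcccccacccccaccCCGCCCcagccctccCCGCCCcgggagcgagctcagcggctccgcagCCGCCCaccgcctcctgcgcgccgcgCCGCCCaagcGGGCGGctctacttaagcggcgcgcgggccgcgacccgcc
Abhd15: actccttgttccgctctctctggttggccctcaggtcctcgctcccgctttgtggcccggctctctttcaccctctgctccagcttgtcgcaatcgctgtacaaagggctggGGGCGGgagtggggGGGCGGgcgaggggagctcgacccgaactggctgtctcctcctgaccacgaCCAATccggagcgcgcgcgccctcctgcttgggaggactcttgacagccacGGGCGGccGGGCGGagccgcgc

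Both windows were rich in G and C. The G and C share was 77.6% for Kctd12 and 68.8% for Abhd15, against a median of 52.4% over 32817 RefSeq windows of that length, of which 97.6% and 89.0% had a lower share. CG pairs numbered 36 and 23, against a median of 6. A search of both strands for 8 motifs found the GC box GGGCGG 7 times before Kctd12 and 4 times before Abhd15, and 32.7% of all windows held it at least once. The CCAAT box occurred once before Abhd15 and not before Kctd12, and 33.8% of all windows held it. The other motifs had no match in either window. They were the TATA box core TATAAA (in 12.4% of all windows), the E-box CACGTG (6.02%), the AP-1 site TGANTCA (6.75%), the PU.1-type site GAGGAAGT (2.44%), the cAMP response element TGACGTCA (1.55%) and the heat shock pair GAANNTTC (6.69%). No match overlapped another, and a match of letters is no evidence of binding.

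Kctd12 was moderately abundant without the inhibitor and among the most abundant transcripts with it. In DMSO Ova its level was 181 CPM in mouse A, 161 in mouse B and 173 in mouse C, a mean of 171 ± 10.1 CPM (SD, n = 3). In DMSO IC it was 180.0, 194 and 199 CPM for the same mice, a mean of 191 ± 9.80 CPM. All 6 DMSO libraries thus lay between 161 and 199 CPM, and the 2 stimulations overlapped. In iBET Ova the level was 1796 CPM in mouse A, 1463 in mouse B and 1424 in mouse C, a mean of 1561 ± 204 CPM. In iBET IC it was 2307, 1977 and 2076 CPM, a mean of 2119.9 ± 169 CPM. The lowest iBET library was far above the highest DMSO library, and the 3 iBET IC libraries all lay above the 3 iBET Ova libraries.

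Abhd15 stood at the edge of detection without the inhibitor and at a modest level with it. Its counts in DMSO Ova were 4 in mouse A, 31 in mouse B and 26 in mouse C, or 2.05, 2.38 and 2.16 CPM, with a mean of 2.20 ± 0.165 CPM. In DMSO IC they were 4, 9 and 14, or 0.337, 0.990 and 1.33 CPM, with a mean of 0.887 ± 0.507 CPM. Every DMSO IC library was below every DMSO Ova library, and mouse A was the lowest of the 3. In iBET Ova the counts were 200, 118 and 129, or 15.4, 13.01 and 14.6 CPM, with a mean of 14.3 ± 1.22 CPM. In iBET IC they were 240, 121 and 95, or 12.8, 11.7 and 11.4 CPM, with a mean of 12.0 ± 0.744 CPM. All iBET libraries lay well above all DMSO libraries, and the iBET IC libraries lay just below those of iBET Ova.

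**Figure D1:**
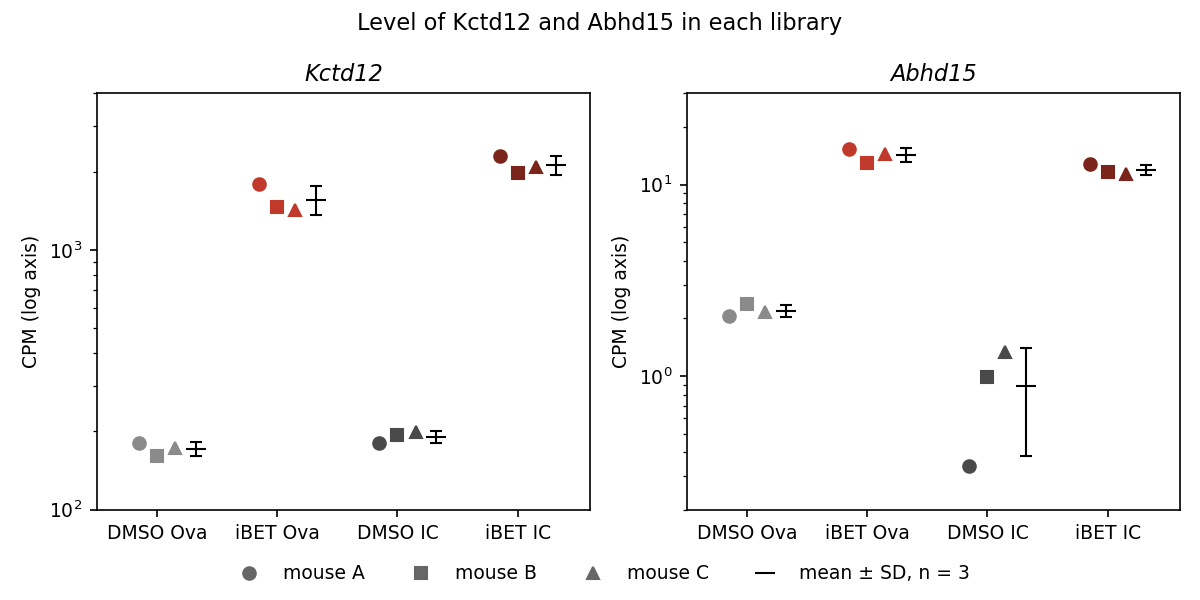
Level of Kctd12 (left) and Abhd15 (right) in CPM on a log axis for each of the 12 libraries, with symbols for mice A, B and C and a bar for the mean ± SD of 3 libraries per group. The 6 iBET libraries stand above the 6 DMSO libraries for both genes, and the widest group is DMSO IC for Abhd15 (0.337 to 1.33 CPM).

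The spread between mice was small next to these differences. For Kctd12 the coefficient of variation within a group was 5.89% in DMSO Ova, 13.1% in iBET Ova, 5.13% in DMSO IC and 7.99% in iBET IC. Counting error alone would give Kctd12 3.24%, 0.805%, 2.24% and 0.647% in the same order, so its spread lay above that of counting in each group. For Abhd15 the coefficients were 7.51%, 8.55%, 57.1% and 6.21%, beside 29.2%, 8.36%, 36.7% and 8.60% from counting alone. Abhd15 is thus limited by its low counts in DMSO. A count of 4 has an exact 95% Poisson interval of 1.09 to 10.2 counts, which is 0.560 to 5.26 CPM in the mouse A library of DMSO Ova and 0.0917 to 0.862 CPM in the deeper DMSO IC library of that mouse. These intervals cover counting error only. The biological coefficient of variation estimated by edgeR over all groups was 12.3% for Kctd12 and 12.97% for Abhd15, below the trend of 17.4% and 20.7% for genes of like abundance.

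The rise with iBET that led to the choice of the pair had the following size. In the fit over all genes the Kctd12 log2 fold change was 3.19 (SE 0.12) in Ova and 3.47 (SE 0.12) in IC, which are 9.12-fold and 11.1-fold. It ranked 19th and 18th from the highest of the 11468 changes. The Abhd15 log2 fold change was 2.67 (SE 0.27) in Ova and 3.77 (SE 0.29) in IC, 6.37-fold and 13.7-fold, with ranks of 40 and 10. Of all genes tested, 17.1% were called higher with iBET in Ova and 19% in IC at an adjusted p under 0.05 (31.3% and 34.8% in either direction). Both members were among them in both stimulations, which follows from how they were chosen. Without the mouse A library of DMSO Ova, the changes in Ova were 3.18 for Kctd12 and 2.61 for Abhd15. Of the 11667 genes tested without it, 3378 were called with iBET in Ova, 1622 of them higher.

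Within single mice, the Kctd12 difference of log2 CPM was 3.31 in mouse A, 3.19 in mouse B and 3.04 in mouse C in Ova, and 3.68, 3.35 and 3.38 in IC. Abhd15 differed by 2.80, 2.36 and 2.65 in Ova, and by 4.63, 3.34 and 2.93 in IC. Mouse A had the largest difference in each case. For Abhd15, mouse A had 4 counts in DMSO Ova and 4 in DMSO IC, so its difference rests on few counts in both stimulations. Without its DMSO IC library the fitted change in IC was 3.32, and without its DMSO Ova library that in Ova was 2.61. The 2 inhibitor contrasts use separate libraries, but each shares its DMSO or iBET libraries with the IC contrasts.

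**Figure D2:**
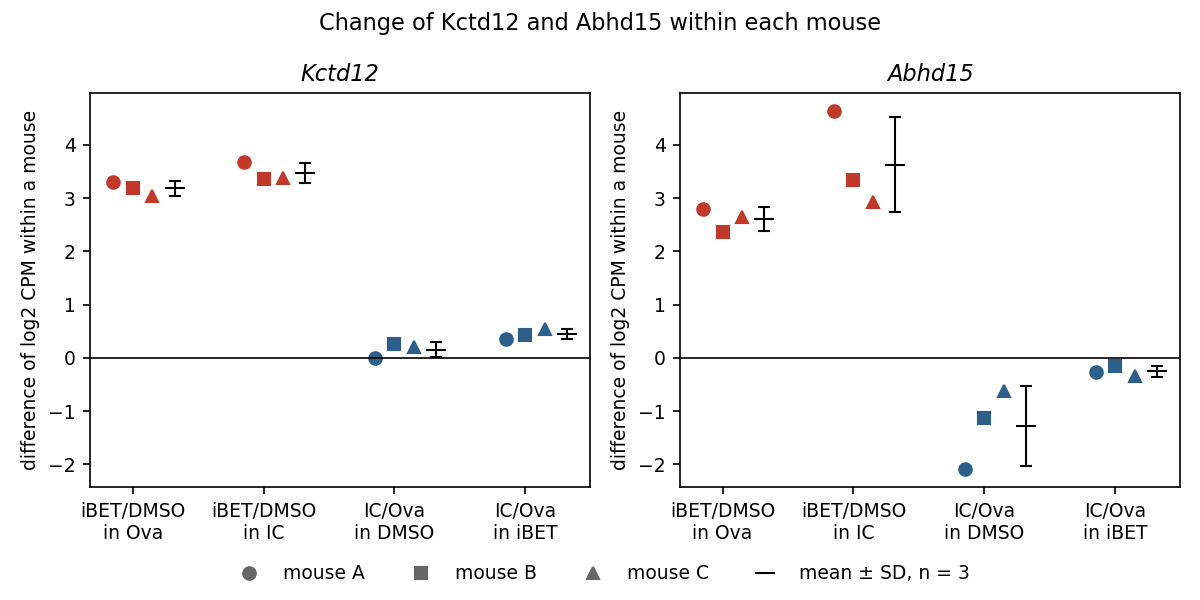
Difference of log2 CPM within each mouse for Kctd12 (left) and Abhd15 (right), for iBET against DMSO (red) and IC against Ova (blue), with a bar for the mean ± SD of 3 mice. The inhibitor differences lie between 2.36 and 4.63, while those of IC against Ova lie between -2.09 and 0.54.

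Per base of exon, Kctd12 was the more abundant of the pair in every library. Its RPKM (CPM per kilobase of exon) was 28.3 ± 1.67 in DMSO Ova, 258 ± 33.7 in iBET Ova, 31.5 ± 1.62 in DMSO IC and 349.99 ± 28.0 in iBET IC. Among 11375 tested genes with a length, its place by RPKM went from 1438 in DMSO Ova to 145 in iBET Ova, and from 1287 in DMSO IC to 96 in iBET IC. The Abhd15 RPKM was 0.723 ± 0.0543, 4.72 ± 0.404, 0.292 ± 0.167 and 3.95 ± 0.245 in the same order of groups. Its place went from 10188 to 6218 in Ova and from 10913 to 6694 in IC. The ratio of Kctd12 to Abhd15 RPKM was 33.9 to 44.1 in DMSO Ova and 49.0 to 58.3 in iBET Ova. It was 74.7 to 268 in DMSO IC, where the 268 is mouse A, and 84.5 to 91.4 in iBET IC.

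The response to IC was not used to choose the pair, although it is read from the same libraries. Neither gene passed the test in edgeR. In DMSO, 1.22% of genes tested (140) were called between IC and Ova, 315 with mouse as a block and 123 without the mouse A library of DMSO Ova. In iBET the share was 0.349% (40 genes), and 85 with the block. Kctd12 differed between IC and Ova by a log2 fold change of 0.16 (SE 0.11) in DMSO, with an adjusted p of 0.694 in edgeR, and it was higher with IC in 2 of 3 mice. Without the mouse A library of DMSO Ova it was 0.17. In iBET the difference was 0.44 (SE 0.11), a 1.36-fold higher level with IC in 3 of 3 mice, and the groups did not overlap. The share of all genes with such agreement or separation was not counted, so neither is read as support. The edgeR adjusted p was 0.183 (0.0666 with mouse as a block). By contrast, DESeq2 called this difference, with an adjusted p of 0.0243, or 0.00706 with the block. With mouse A left out, edgeR called it too, at 0.52 and an adjusted p of 0.0184.

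Abhd15 went the other way. In DMSO its log2 fold change between IC and Ova was -1.36 (SE 0.34), a level 2.56-fold lower with IC, in 3 of 3 mice and without overlap of the groups. Here too, the share of all genes with such agreement or separation was not counted, and neither is read as support. The edgeR adjusted p was 0.0908 (0.0734 with mouse as a block). DESeq2 gave 0.0208, or 0.0362 with the block, and edgeR with 1 surrogate variable gave 0.0401. Those fits called 270 of 16746, 427 of 16759 and 504 of 11468 genes in this contrast. With the compared groups alone, the edgeR adjusted p was 0.498. In edgeR it was 0.177 without mouse A, 0.906 without mouse B and 0.267 without mouse C. The difference within mice was -2.09 in mouse A, -1.12 in mouse B and -0.62 in mouse C. The fitted value was -0.93 without the mouse A library of DMSO IC (adjusted p of 0.158 in edgeR) and -1.40 without the mouse A library of DMSO Ova (0.111 in edgeR). In iBET the Abhd15 difference was -0.26 (SE 0.22), with an adjusted p of 0.865 in edgeR, again lower with IC in 3 of 3 mice.

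The interaction (the log2 change with IC in iBET, less the same change in DMSO) was 0.28 (SE 0.16) for Kctd12 and 1.10 (SE 0.41) for Abhd15. The unadjusted p in edgeR was 0.0969 for Kctd12 and 0.0192 for Abhd15, and both adjusted p-values were 1.00. The Abhd15 value was 0.68 without the mouse A library of DMSO IC. Without that of DMSO Ova, the interaction was 0.28 for Kctd12 and 1.15 for Abhd15. Across all genes, edgeR called 0 (0%) for the interaction, 292 had an unadjusted p under 0.05, and DESeq2 called 4. Neither Kctd12 nor Abhd15 was among those 4. A different response of either gene to IC in the 2 drug arms was thus not detected with 3 mice per group.

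The counts called in each of the 4 gene lists are to be read beside the background of all genes tested, 31.3% in Ova and 34.8% in IC in either direction. Nothing particular to a list is read from them. Of 18 tested KCTD genes other than Kctd12, 5 rose and 2 fell with iBET in Ova, and 5 rose and 2 fell in IC. Their median log2 fold change was 0.18 in Ova and 0.17 in IC, against 0.02 and -0.0037 over all genes tested. Kctd6, a Cullin-3 adaptor, rose by 1.08 (SE 0.25) in Ova and 1.20 (SE 0.24) in IC. Kctd10 and Kctd13, Cullin-3 adaptors that act on RhoA, rose by 0.61 and 0.62 in Ova and by 0.52 and 0.53 in IC. Kctd7 rose by 0.51 in Ova and 1.10 in IC. Kctd21 passed the test in Ova (0.66), and Kctd11 in IC (0.77).

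Kctd12b, a relative of Kctd12, moved opposite to it. It fell with iBET from 15.3 ± 0.974 to 7.30 ± 1.08 CPM in Ova (log2 fold change -1.06) and from 8.17 ± 1.48 to 4.69 ± 0.198 CPM in IC (-0.80). Between IC and Ova in DMSO it was called too, at -0.90 with an adjusted p of 0.0273 in edgeR. Shkbp1, the other KCTD gene that fell, changed by -0.62 in Ova and -0.67 in IC. The 7 remaining KCTD genes were at low or no counts. Among them, Kctd8 and Kctd16, which like Kctd12 bind the GABA-B receptor, had 2 and 0 counts over all 12 libraries.

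The receptor that Kctd12 serves in neurons was barely present. Gabbr1 and Gabbr2, its subunits, had 5 and 55 counts in all. Of 15 tested genes of G proteins and Cullin-3 partners, 1 rose and 3 fell with iBET in Ova. In IC 1 rose and 2 fell, or 5 were called with mouse as a block. The background of calls was 31.3% in Ova and 34.8% in IC. Gnb4, a Gβ subunit, fell by 1.33 in Ova and by 1.11 in IC. Gnb1, another Gβ subunit, changed by -0.36 and -0.29, and both passed the test. The Gγ gene Gng7 rose by 1.46 in Ova, from a low level of 0.951 ± 0.844 CPM to 3.48 ± 0.784 CPM. Gng11, also low at 2.78 CPM or less in each group mean, changed by -1.23 there, while Gng2 rose by 0.37 in IC. The list's median was 0.02 in Ova and 0.10 in IC.

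The ABHD family shares the fold of Abhd15. Of 18 tested ABHD genes other than Abhd15, 2 rose and 0 fell in Ova (3 had an unadjusted p under 0.05), and 4 rose and 0 fell in IC (6 at an unadjusted p under 0.05). The background of genes called higher was 17.1% in Ova and 19% in IC. The median of the family log2 fold change was 0.32 in Ova and 0.34 in IC. Abhd2 rose by 0.43 and 0.45, and Abhd16a, a phosphatidylserine lipase, by 0.55 and 0.87. Abhd6, a monoacylglycerol lipase, rose by 1.75 in IC, where its level went from 0.839 to 2.98 CPM, and had 0.52 in Ova. Abhd17b, a depalmitoylase, rose by 0.51 in IC. Abhd12, a lysophosphatidylserine lipase, had log2 fold changes of 0.0016 and 0.14.

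Genes of lipolysis and insulin signalling moved in both directions. Of 15 tested, 4 rose and 3 fell with iBET in Ova, and 4 rose and 4 fell in IC, with medians of -0.12 and 0.08, beside the same background of 31.3% and 34.8% called. Pde3b, whose protein ABHD15 binds in adipocytes, did not pass the test, at -0.46 in Ova and -0.45 in IC (edgeR adjusted p of 0.0966 and 0.0989). The lipases Pnpla2 and Lipe had 0.11 and 0.10 in Ova, and neither passed. Dgat2 and Dgat1, which make triglyceride, rose by 2.15 and 0.94 in Ova and by 2.31 and 1.15 in IC. The Dgat2 level was low, from 1.15 ± 0.397 to 4.55 ± 1.34 CPM in Ova and from 0.684 ± 0.647 to 3.18 ± 1.23 CPM in IC. Irs2, an adaptor of the insulin receptor, rose by 1.56 and 2.04, and the receptor gene Insr by 0.51 and 0.46. Pparg, a regulator of lipid genes, fell from 66.4 ± 9.55 to 14.0 ± 2.99 CPM in Ova and had log2 fold changes of -2.23 and -2.09. The lipid droplet gene Plin2 changed by -0.77 and -0.80, and Akt2 by -0.67 and -0.55. Fabp4 passed the test in IC only, at -2.13 and a level of 2.62 CPM or less in each group mean.

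**Figure D3:**
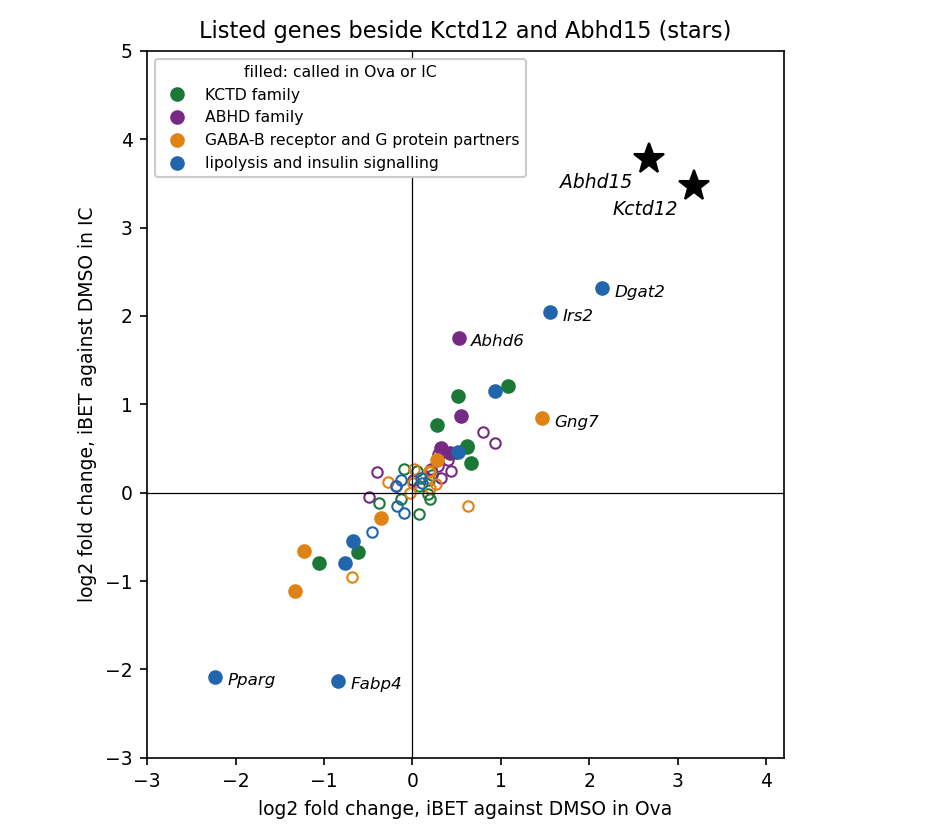
Log2 fold change of iBET against DMSO in Ova (horizontal) and IC (vertical) for the tested genes of 4 lists, coloured by list and filled where called in either stimulation, with Kctd12 and Abhd15 as stars. The highest listed gene is Dgat2 at 2.15 and 2.31, a gene of low level in DMSO. The pair lies above it on both axes, which follows from how the pair was chosen.

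Over the 4 lists, which held 65 tested genes, edgeR called 1 gene (Kctd12b) between IC and Ova without the inhibitor, and 0 with it. By the unadjusted p alone, 2 passed 0.05 without the inhibitor and 4 with it. Of the 20 listed genes called with iBET in Ova, 18 were still called without the mouse A library of DMSO Ova. All 20 kept their direction and moved by at most 0.23 on the log2 scale. The 2 no longer called were Kctd7 (0.44) and Abhd16a (0.33), while Abhd11 was called there (-0.69).

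The annotation places other genes on top of the pair. The hairpin of Mir5130 lies inside the first exon of Kctd12 on the same strand, from 102982549 to 102982632 on chromosome 14. Its mature form is shown because its count cannot be separated from that of Kctd12, with the seed (bases 2 to 8) in capitals, as RefSeq gives it.
mmu-miR-5130: cUGGAGCGcgcgggcgaggcaggc

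Reads assigned to Mir5130 numbered 3 to 31 in the DMSO libraries and 171 to 456 in the iBET libraries. They equalled 0.852% to 1.48% of the Kctd12 count in every library, a range that DMSO and iBET libraries share. Its log2 fold change of 3.15 in Ova and 3.63 in IC stands beside 3.19 and 3.47 for Kctd12. In total RNA, fragments of the Kctd12 transcript and of the hairpin cannot be told apart. A lincRNA, Gm26778, lies opposite Kctd12 and has no row in the table. Opposite Abhd15 lie Trp53i13 at its start, Gm10392, which has no row, and Taok1 at its end. How the counting treated strand is not given in the sources used here. Taok1 had 39674 counts in all and log2 fold changes with iBET of -0.02 in Ova and 0.04 in IC, and Trp53i13 had 0.44 and 0.56, none of which passed the test.

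Around Kctd12, 14 other annotated genes start within 500 kb and 5 were tested. With Mir5130 set aside, Mycbp2, which encodes a ubiquitin ligase, rose by 0.83 in Ova and by 0.72 in IC. Irg1, the macrophage enzyme that makes itaconate, starts 64.3 kb upstream and moved opposite to Kctd12, at -2.17 (SE 0.37) in Ova and -1.88 (SE 0.28) in IC. Irg1 also responded to IC, with 2.94 in DMSO and 3.24 in iBET and adjusted p-values of 0.0014 and 0.0015 in edgeR. Around Abhd15, 30 other annotated genes start within 500 kb, 10 were tested and 1 was called with iBET. The called neighbour was Ssh2, a phosphatase that acts on cofilin, which starts 299 kb upstream and rose by 1.15 in Ova and 1.60 in IC. Calls around both genes are to be read beside the 31.3% of all genes tested that were called with iBET in Ova and the 34.8% in IC. Ssh2 shared the direction of Abhd15 in the IC contrast too, at -0.79 in DMSO (edgeR adjusted p of 0.0023), and it was -0.34 in iBET, which did not pass.

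**Figure D4:**
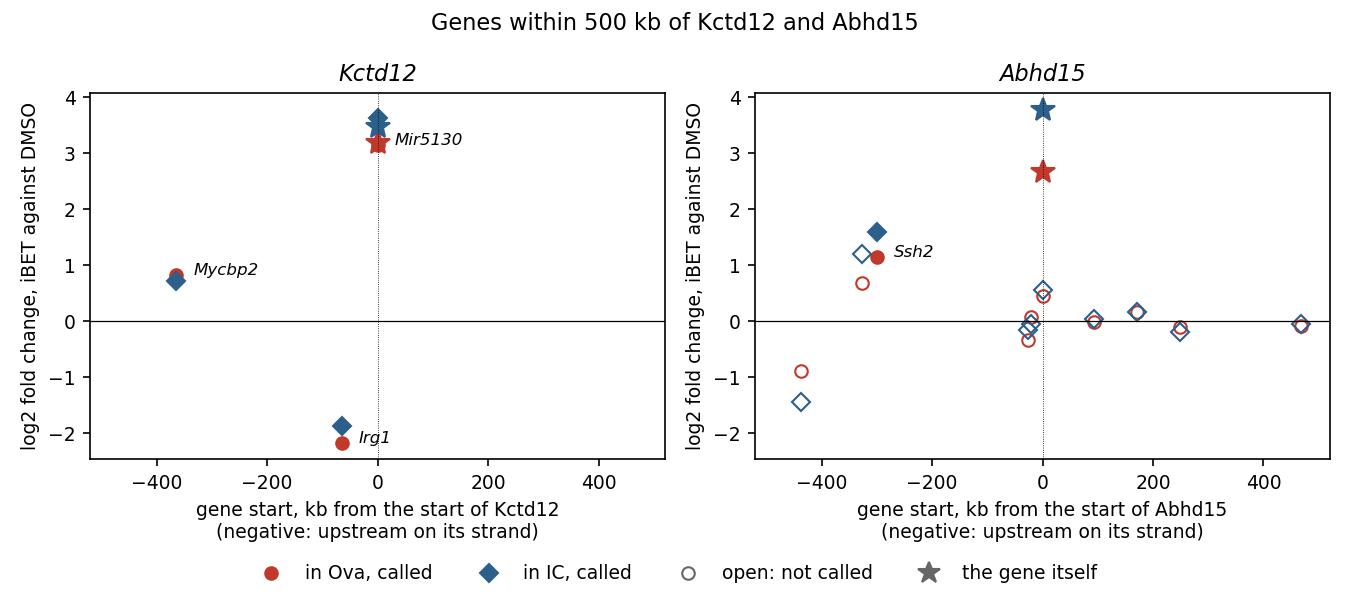
Log2 fold change of iBET against DMSO for Mycbp2, Irg1 and Mir5130 near Kctd12 (left) and for the 10 tested genes within 500 kb of Abhd15 (right), against the distance of each gene's start in kb along the strand of the pair, with circles for Ova, diamonds for IC and stars for Kctd12 and Abhd15 themselves. Mycbp2, Mir5130 and Irg1 were called near Kctd12, and Ssh2 near Abhd15.

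Profiles most like those of the pair were found by the root mean square (RMS) difference of log2 CPM, each gene centred on its mean over the 12 libraries, among genes with a mean count of at least 50. Since the pair was chosen for its rise with iBET, and nearness was taken over all 4 groups, these genes share that rise and the other group differences by construction. Setting Mir5130 aside (0.22), the closest to Kctd12 were Mt2, a metallothionein (RMS difference 0.29), the immediate early genes Egr1 (0.32) and Ier3 (0.35), and Hspa1a, which encodes the inducible HSP70 (0.36). The median over all 9427 genes compared was 1.67. Mt2 had 12.3 ± 1.63 CPM in DMSO Ova and 132 ± 36.6 CPM in iBET Ova, and 11.1 ± 1.51 against 145 ± 36.3 CPM in IC. Egr1 went from 8.82 ± 2.31 to 69.8 ± 6.96 CPM in Ova and from 9.07 ± 2.60 to 74.4 ± 3.72 CPM in IC.

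The closest to Abhd15 were Vdr, the vitamin D receptor gene (0.33), Lgr4, a receptor for R-spondins (0.45), Cnnm4, a magnesium transporter gene (0.51), Cnksr3, a scaffold gene (0.53), and Egr1 (0.55). Vdr had 1.17 ± 0.400 and 8.61 ± 1.07 CPM in the Ova groups and 0.600 ± 0.319 and 8.27 ± 0.673 CPM in the IC groups. The members ranked 29th (Abhd15 for Kctd12) and 18th (Kctd12 for Abhd15) in each other's lists, with an RMS difference of 0.65 between them. Without the mouse A library of DMSO Ova, 4 of the 5 nearest genes were shared with the full list for each of the pair.

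**Figure D5:**
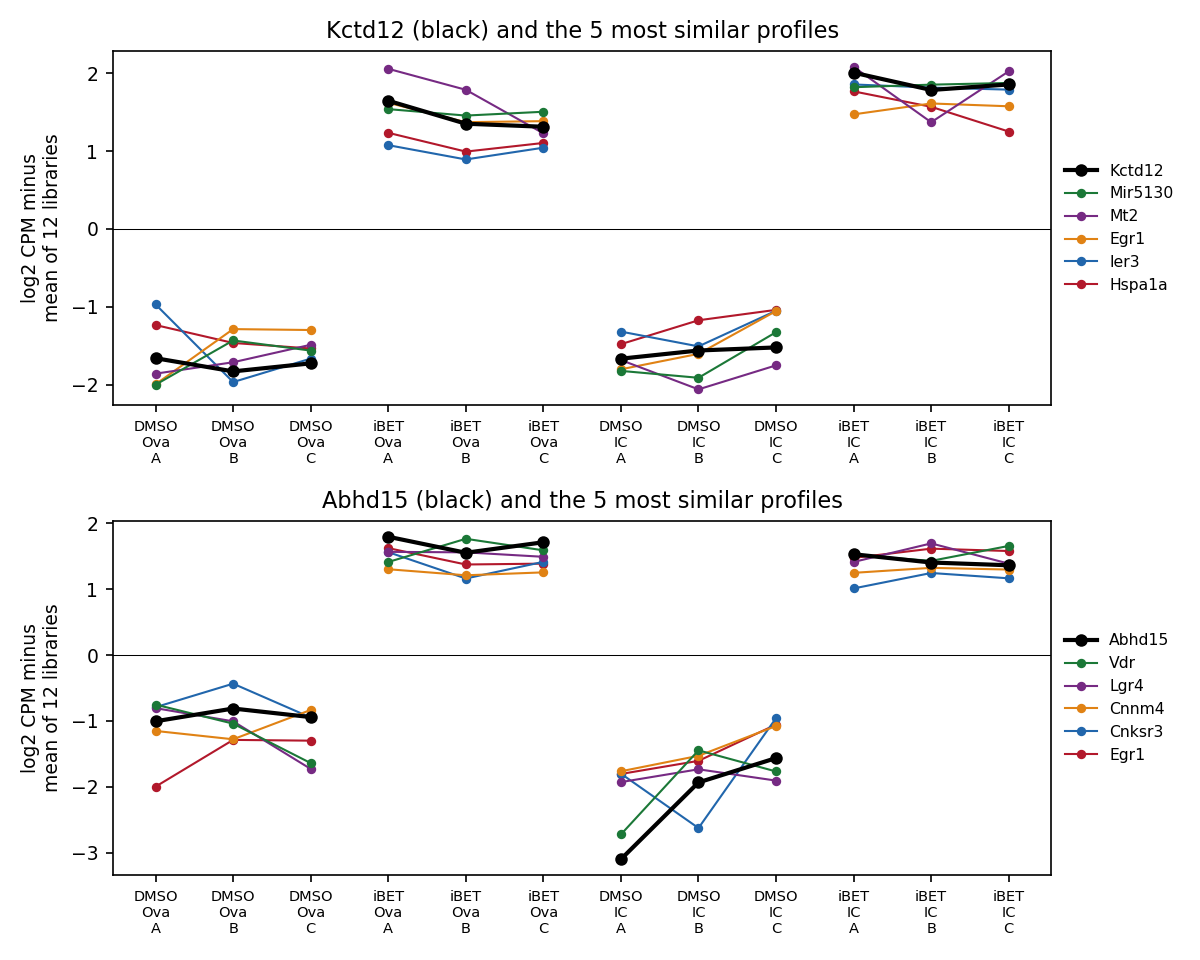
Log2 CPM minus the mean of 12 libraries for Kctd12 (top, black) and Abhd15 (bottom, black) and the 5 genes nearest to each, by group and mouse. All genes drawn lie above 0 in the 6 iBET libraries and below 0 in the 6 DMSO libraries, and Abhd15 is lowest in the mouse A library of DMSO IC.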

How the data were processed

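The authors trimmed reads with Trim Galore, aligned them to mm10 with HISAT2 and assigned them to genes with featureCounts, per the labels and methods. They deposited a table of counts per gene symbol and a table of normalized signal, which equalled the deposited counts divided by DESeq2 size factors (largest relative gap 4.88e-15). Annotation, strand and multi-mapping settings are not given in the sources used here.

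Counts of the 12 libraries (4 groups of 3) were fitted together in edgeR 4.0.16 (R 4.3.3) with filterByExpr (minimum count 10, 11468 genes), TMM scaling and a robust quasi-likelihood model with 1 term per group. Two-sided p-values were adjusted over the 11468 genes (Benjamini-Hochberg), and an adjusted p under 0.05 was a call. SE is the absolute log2 fold change over the square root of F. For changes within mice, log2 CPM used a prior count of 2. The code was tested on simulated data.

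Groups and mice come from the labels, so numbers pair libraries by animal. The main fit held no mouse term, so its p-values reflect the spread between 3 mice in each group and leave out the pairing. Deviations from group means correlated between -0.0725 and 0.542 over the 18 same-mouse pairs, and between -0.499 and 0.271 over the 36 different-mouse pairs. Alternatives were DESeq2 1.42.0 with and without mouse as a block, DESeq2 size factors, 2 other count filters, the block in edgeR, 1 surrogate variable (sva 3.50.0), the compared groups alone, no Rn45s, the authors' signal in limma 3.58.1 with a pseudocount of 1, and omission of each library or mouse.

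Positions and exon lengths are from GENCODE vM21, with 24028 of 24421 symbols matched (23384 directly). RefSeq promoter windows gave an entry for both genes. Beside the pair, genes were named by a rule: the 5 nearest profiles of each, called genes of 4 hand-written lists (up to 5 per direction and list), genes that overlap the pair, and called neighbours within 500 kb. Genes named outside that rule (among them Gabbr1 and Pde3b) were chosen for their role after values were seen, and some genes that the rule selects are withheld and not given. The pair and the lists were chosen with earlier results of these data known. The study's pathway analysis was not used here.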

Additional observations from a re-analysis of the deposited data

How the results depend on the processing

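Of 879 values recomputed under an alternative, 783 kept their side of the threshold, or stayed within 1.5 times the main count, and 0 reversed. The tally includes the iBET against DMSO changes of the pair, which follow from how the pair was chosen and are no test. Over the omissions of a library or mouse, the log2 excess with iBET was 3.08 to 3.26 in Ova and 3.36 to 3.53 in IC for Kctd12, and 2.57 to 2.81 and 3.28 to 4.27 for Abhd15. Abhd15 could not be fitted with at least 10 counts required in every library, since 3 of its libraries were below that. Where a value moved, the cause was not tested.

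Kctd12 between IC and Ova in iBET was called by DESeq2 (0.45 on the log2 scale), by DESeq2 with mouse as a replicate block (0.45) and without mouse A. It was not called without mouse B, without mouse C or in any omission of 1 library. Its value ranged from 0.38 to 0.56 over the omissions of a library or mouse. Abhd15 between IC and Ova in DMSO was called by DESeq2 (-1.38), by DESeq2 with the block (-1.37) and with 1 surrogate variable (-1.29). It was not called with the compared groups alone (-1.35), nor in any omission of a library or mouse.

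Genes called between IC and Ova in DMSO numbered 270 in DESeq2, 427 in DESeq2 with the block, 315 in edgeR with the block, 504 with 1 surrogate variable and 5 with the compared groups alone, and 0 to 159 over the omissions (0 without mouse B). In iBET the counts were 103, 176, 85, 130 and 99 in that order, and 0 to 305 over the omissions. For the interaction DESeq2 called 4, or 6 with the block, and the omissions gave 0 to 1. Genes called with iBET ranged from 1310 to 3899 in Ova and from 1769 to 4469 in IC over the omissions, both lowest without mouse B.

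Listed genes called with iBET ranged over the omissions, in Ova and in IC, from 2 to 6 and 3 to 7 (KCTD), 0 to 3 and 1 to 5 (ABHD), 1 to 5 and 1 to 4 (GABA-B and G protein), and 2 to 8 and 3 to 9 (lipolysis). ABHD genes in Ova numbered 1 with DESeq2 size factors, with 10 counts in every library, with the compared groups alone and without Rn45s, and 4 with 1 surrogate variable. G protein genes in Ova numbered 2 with 10 counts in every library and 7 with 1 surrogate variable, and in IC 5 with the block in edgeR. With 10 counts in every library, 2 neighbours of Kctd12 were called in each stimulation, beside 3 higher and 1 lower in the main fit. That filter tested 9218 genes. Near Abhd15 in IC, 2 genes were called with 1 surrogate variable, and 1 to 3 over the omissions. The block in edgeR changed no other call of the pair or count of listed genes by over 1.5 times. Abhd15 counts in DMSO were 4 to 31, which limits its precision there.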
